A study of Mus musculus with 6 samples.

Results

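The 6 genes of the platelet-derived growth factor (PDGF) system, the ligand genes Pdgfa, Pdgfb, Pdgfc and Pdgfd and the receptor genes Pdgfra and Pdgfrb, were followed through single-nucleus RNA-seq of mouse periosteum before and after tibial fracture. They were taken by their symbols, as a set chosen with earlier results of these data known, and are 6 of the 30406 genes listed for every library. All 6 had at least 1 UMI (unique molecular identifier, 1 counted RNA molecule) in each of the 6 libraries. The mice were C57BL6 by the labels (C57BL/6ScNj in the study's methods), 12 weeks old, with males and females mixed. The labels name no transgene or deletion in any group. The uninjured group (2 libraries) held periosteum scraped from tibias of 4 pooled mice. The groups taken 3 days (2 libraries), 5 days (1 library) and 7 days (1 library) after an open, non-stabilized tibial fracture held the activated periosteum with the hematoma, pooled from 4 to 9 mice by the study's methods. Sorted nuclei were sequenced, so that RNA of the cytoplasm was largely left out. Nothing states that the libraries of a day came from separate sets of mice, and the p-values below measure only the spread between libraries, which may be technical.

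PDGFs are secreted dimers that bring receptor tyrosine kinases together at the cell surface. PDGF-A and PDGF-C act mainly through the receptor encoded by Pdgfra, PDGF-D acts mainly through the receptor encoded by Pdgfrb, and PDGF-B binds both. PDGF-C and PDGF-D are released in a latent form and are switched on by proteases that cut away an inhibitory domain. In vessels, PDGF-B from endothelial cells recruits and holds pericytes, which carry PDGFRβ, whereas PDGFRα marks fibroblasts and mesenchymal progenitors in many tissues.

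The 6 libraries held 13551 barcodes and 55293921 UMIs. The totals were 1499281 and 6570301 UMIs in uninjured 1 and 2, 2516184 and 29796296 in day 3 1 and 2, 10411092 at day 5 and 4500767 at day 7. After limits on genes and on mitochondrial and ribosomal reads, and after removal of muscle nuclei, 6379 nuclei were kept, and they formed 12 populations named from marker genes and 2 unnamed clusters (363 and 91 nuclei). Stromal nuclei (2978) joined those like skeletal stem/progenitor cells (SSPC-like), fibroblasts, injury-induced fibrogenic cells (IIFC-like, the extracellular matrix-producing cells that follow fracture), osteoblasts, chondrocytes and tenocytes. The other populations used most were endothelial-like (883 nuclei), immune-like (1629) and pericyte/smooth muscle cell-like (pericyte/SMC-like, 247). Over these nuclei the 6 genes gave 508 UMIs of Pdgfa, 930 of Pdgfb, 5966 of Pdgfc, 7549 of Pdgfd, 2327 of Pdgfra and 1585 of Pdgfrb, of 23548226 UMIs in all.

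The markers from which the populations were named were checked over all libraries and within each. The 7 pericyte/SMC markers, led by Myh11, summed to 7208 CPM (counts per 1000000 UMIs of the summed nuclei) in pericyte/SMC-like nuclei. The 8 endothelial markers, led by Ptprb, summed to 6743 CPM in endothelial-like nuclei, and the 6 immune markers, led by Arhgap15, to 7820 CPM in immune-like nuclei. One library stood apart. The 21 immune-like nuclei of uninjured 1 had UMIs of 3 of the 6 immune markers, which summed to 1025 CPM against 8078 CPM in uninjured 2, while the endothelial markers summed to 805 CPM and the muscle markers to 1757 CPM. They go against their name, and each fitted difference of a PDGF gene in immune-like nuclei was therefore also computed without uninjured 1. The 147 immune-like nuclei at day 7 also carried more of the muscle markers (3250 CPM, of which Ttn made 2847 CPM) than of the immune markers (2991 CPM, with all 6 found). Without day 7, every difference of a PDGF gene between immune-like and stromal or endothelial-like nuclei kept its direction and its side of the threshold. IIFC-like nuclei included a shallow cluster (256 of 1098 nuclei, a median of 749 UMIs). It had 6 IIFC markers in at least 10% of its nuclei but 0 among its 10 leading genes. This cluster gave 17 of the 34 IIFC-like nuclei of uninjured 2. Pericyte/SMC-like nuclei were few at day 3 (3 and 9 nuclei), so that this population has no day 3 level of its own in most of what follows. Libraries shared at most 7 barcodes, between day 3 2 and day 5.

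The ligand genes lie apart in the genome (GENCODE vM21 gene models, build GRCm38). Pdgfd (ENSMUSG00000032006) spans chr9:6168584-6378850 on the plus strand, and Pdgfc (ENSMUSG00000028019) spans chr3:81036416-81214040 on the plus strand. Pdgfa (ENSMUSG00000025856) lies at chr5:138976014-138997370 on the minus strand and Pdgfb (ENSMUSG00000000489) at chr15:79995874-80014977 on the minus strand. The intervals hold introns, which nuclear RNA includes, and levels are compared below only within a gene. For Pdgfd and Pdgfc, the ligand genes with the most UMIs, the 250 bases before the RefSeq start (GRCm38.p6) are shown 5′ to 3′, at chr9:6168236-6168485 and chr3:81036166-81036415 on the plus strand. Capitals mark a match to any of 4 motifs searched on both strands, AP-1 (TGANTCA), the GC box (GGGCGG), the TATA box (TATAAA) and a RUNX site (TGTGGT).
Pdgfd: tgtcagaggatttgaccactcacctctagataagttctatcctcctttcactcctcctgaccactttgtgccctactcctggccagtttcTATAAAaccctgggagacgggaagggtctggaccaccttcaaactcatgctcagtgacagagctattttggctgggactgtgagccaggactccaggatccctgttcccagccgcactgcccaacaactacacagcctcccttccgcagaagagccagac
Pdgfc: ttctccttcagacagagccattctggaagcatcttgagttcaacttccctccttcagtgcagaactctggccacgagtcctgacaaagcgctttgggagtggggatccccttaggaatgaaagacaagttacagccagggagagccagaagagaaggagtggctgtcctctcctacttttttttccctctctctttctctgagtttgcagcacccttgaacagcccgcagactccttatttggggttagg
The Pdgfd window held 1 TATAAA, which began 160 bases before the start, and the Pdgfc window held none of the 4 motifs. Of 32851 promoter windows of this length, 6.75% held the AP-1 letters, 32.7% the GC box, 12.4% the TATA box and 14.0% the RUNX letters. A match describes the letters only.

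To ask which populations are sources and which are targets of PDGF signals, UMIs were summed per library and population and compared across libraries with edgeR's quasi-likelihood test, with the library as a block. Pdgfb was high in endothelial-like and osteoclast-like nuclei, Pdgfa had its highest mean in pericyte/SMC-like nuclei, and Pdgfc was shared by stromal and immune-like nuclei. Pdgfd was high in osteoblast-like and endothelial-like nuclei, and in the uninjured libraries also in pericyte/SMC-like nuclei (737 and 1284 CPM). Pdgfra had its highest means in fibroblast-like, IIFC-like and SSPC-like nuclei, with overlapping ranges. The IIFC-like mean leaned on uninjured 2 (779.5 CPM from 34 nuclei), against 75.0 to 250.2 CPM in its other libraries. Pdgfrb had its highest mean in pericyte/SMC-like nuclei, but in uninjured 1 it was lower there (134 CPM) than in stromal nuclei (169 CPM). That difference from stromal nuclei did not pass (edgeR adjusted p = 0.0768). In endothelial-like against stromal nuclei (6 libraries), 5 of the 6 genes passed an adjusted p of 0.05, where 30.7% of the 10224 genes tested did. In immune-like against stromal nuclei (6 libraries), 4 of 6 passed, with or without uninjured 1, against 43.0% of 10841 genes. In pericyte/SMC-like against stromal nuclei (4 libraries with at least 20 nuclei of both), 2 of the 5 genes tested passed, against 10.4% of 6718 genes. These comparisons share the stromal nuclei.

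**Figure D1:**
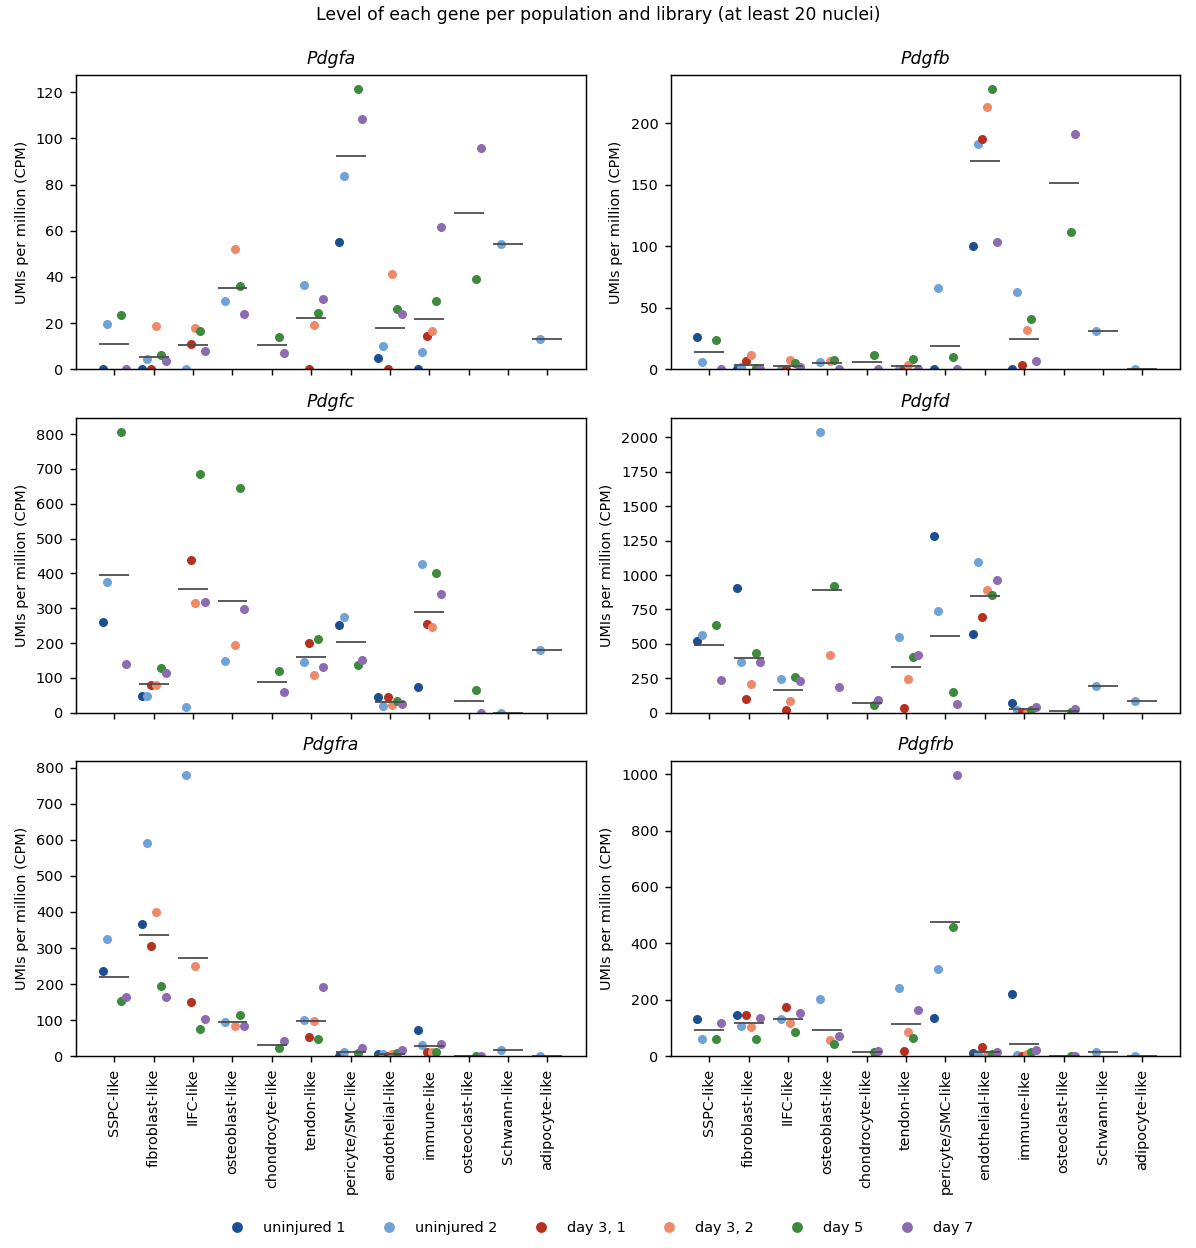
Level of each gene (CPM, y axis, linear) in 12 populations (x axis), with 1 point per library of at least 20 nuclei colored by library and a bar at the mean over libraries. Pdgfb has its highest mean in endothelial-like nuclei (104 CPM at day 7 and 228 CPM at day 5, for example). Osteoclast-like nuclei lie inside that range (111 and 191 CPM). Pdgfrb has its highest mean in pericyte/SMC-like nuclei and Pdgfra in fibroblast-like nuclei. Both ranges overlap those of IIFC-like nuclei, where Pdgfra reaches 779.5 CPM.

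Pdgfb, the ligand that binds both receptors, was measured in endothelial-like nuclei at 101 CPM in uninjured 1, 183 CPM in uninjured 2, 187 and 213 CPM in day 3 1 and 2, 228 CPM at day 5 and 104 CPM at day 7. In stromal nuclei the same libraries gave 4.35, 2.97, 2.29, 8.25, 5.95 and 0.585 CPM. Every endothelial-like value lay above every stromal value. The log2 difference was 5.32 (SE 0.284, adjusted p = 3.65e-07, edgeR quasi-likelihood test with Benjamini-Hochberg adjustment), and it was higher in 6 of 6 libraries. Over libraries the mean was 169 ± 54.7 CPM (SD, n = 6) in endothelial-like nuclei. Osteoclast-like nuclei, the next in order, had 111 CPM at day 5 and 191 CPM at day 7, within the endothelial-like range, and 504 CPM in the 15 nuclei of day 3 2. Immune-like nuclei followed at a lower level, with 63.0 CPM in uninjured 2, 3.62 and 31.8 CPM at day 3, 40.6 CPM at day 5, 6.83 CPM at day 7 and no UMI in uninjured 1. They were above stromal nuclei by a log2 difference of 2.76 (edgeR adjusted p = 1.10e-05, and 2.72 with adjusted p = 7.35e-05 without uninjured 1, but p = 0.09375 in the exact paired permutation test over 6 libraries) and below endothelial-like nuclei by -2.64 (edgeR adjusted p = 3.47e-07, where 37.8% of 8031 genes passed, and -2.67 without uninjured 1). Pericyte/SMC-like nuclei had 0, 65.9, 9.85 and 0 CPM in uninjured 1, uninjured 2, day 5 and day 7 and were below endothelial-like nuclei (-2.98, SE 0.642, edgeR adjusted p = 0.00788), a call lost without the library block (adjusted p = 0.0535).

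When each nucleus was drawn down to 500 UMIs, so that deep nuclei were not favored, Pdgfb was found in 64 of 882 endothelial-like nuclei (7.26%, Clopper-Pearson 95% interval 5.63 to 9.17%). It was found in 5 of 2971 stromal nuclei (0.168%), which serve as the background, and in 0 of 740 fibroblast-like nuclei, which, taking 3 nuclei as the limit of a count of 0, allows a share of nuclei with a UMI of up to 0.405%. The median depth before the draw was 2216 UMIs in endothelial-like and 2651 UMIs in stromal nuclei. Before the draw, 30.6% of endothelial-like nuclei had a Pdgfb UMI. The intervals cover counting error only.

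Within the endothelial-like population the level of Pdgfb differed by cluster. The cluster led by Adgrl4, Rasgrp3 and Kit had 228 and 243 CPM in uninjured 1 and 2, 259 and 346 CPM at day 3, 352 CPM at day 5 and 106 CPM at day 7. The cluster led by Gja5, Sema3g and Bmx, the first a connexin of arterial endothelium, had 197 and 404 CPM in uninjured 1 and 2 and 199 CPM at day 5. The cluster led by Vwf, Selp and Aqp1, the second an adhesion molecule of venules, was lower in every library where each had at least 20 nuclei, at 70.4 and 116 CPM in uninjured 1 and 2, 56.0 CPM in day 3 2, 51.4 CPM at day 5 and 29.1 CPM at day 7. The cluster led by Mmrn1 and Reln, genes of lymphatic endothelium, had 26.1 and 49.7 CPM in uninjured 1 and 2 and 36.0 CPM at day 5, from 1 to 7 UMIs a library. The remaining cluster, led by Egfl7, Rasip1 and Pecam1, was shallow (a median of 761.5 UMIs) and had 26.4 and 126 CPM in uninjured 1 and 2 and 339 CPM at day 5. These clusters were formed from the same nuclei, and the values are a description with no test.

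Pdgfa, a ligand of PDGFRα, was the least counted member. Pericyte/SMC-like nuclei had 55.0 and 83.9 CPM in uninjured 1 and 2, 122 CPM at day 5 and 108 CPM at day 7. Osteoclast-like nuclei, the next in order, had 39.3 and 95.7 CPM in 2 libraries, which overlaps that range, and Schwann-like nuclei had 54.0 CPM in 1 library. Stromal nuclei of those libraries had 0, 13.6, 16.5 and 8.77 CPM, so that the groups did not overlap. The log2 difference was 3.10 (SE 0.458, edgeR adjusted p = 0.00576), and against endothelial-like nuclei, which had 0 to 41.4 CPM over 6 libraries, it was 2.68 (edgeR adjusted p = 0.000996, where 21.9% of 6803 genes passed). At 500 UMIs, 9 of 247 pericyte/SMC-like nuclei (3.64%, 1.68 to 6.80%) had a Pdgfa UMI, against 18 of 2971 stromal nuclei (0.606%). Among stromal populations, osteoblast-like nuclei had more Pdgfa than fibroblast-like nuclei (log2 difference 2.14, edgeR adjusted p = 0.0216, where 10.8% of 7672 genes passed), a call that was lost without day 3 2 (adjusted p = 0.0796) or without day 7 (adjusted p = 0.0505).

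**Figure D2:**
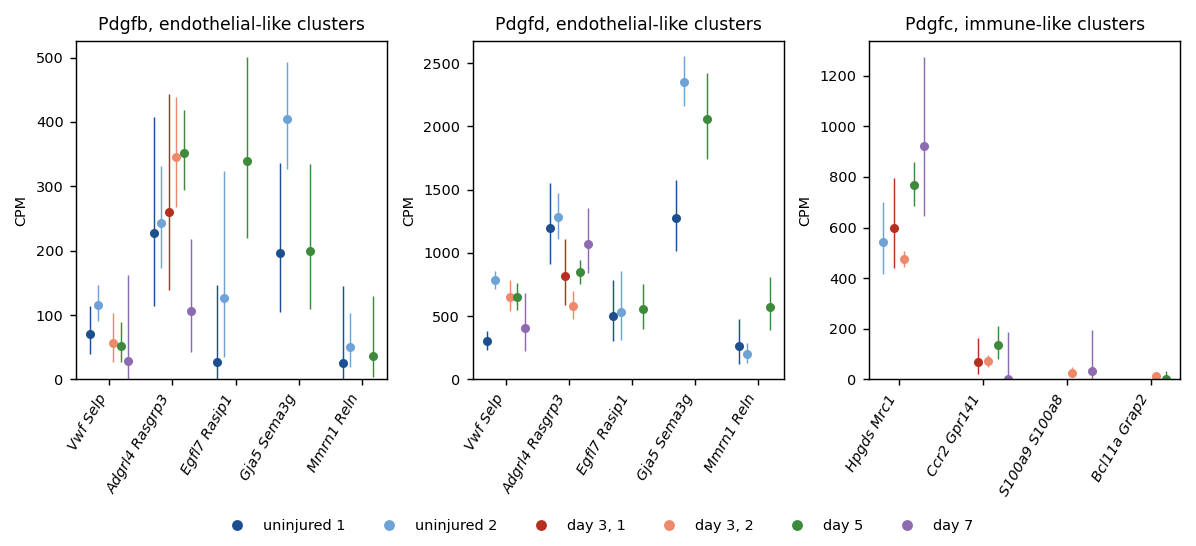
Levels (CPM, y axis, linear) of Pdgfb and Pdgfd in endothelial-like clusters and of Pdgfc in 4 immune-like clusters (x axis, named by leading genes), with 1 point per library of at least 20 nuclei and exact Poisson 95% intervals for counting error. Pdgfd is highest in the Gja5 and Sema3g cluster (2353 CPM in uninjured 2), Pdgfb is low in the Vwf and Mmrn1 clusters, and, among the clusters shown, Pdgfc is highest in the Hpgds and Mrc1 cluster (920.2 CPM at day 7).

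Pdgfd, the latent ligand of PDGFRβ, was measured in endothelial-like nuclei at 574 and 1091 CPM in uninjured 1 and 2, 695 and 893 CPM at day 3, 852 CPM at day 5 and 965 CPM at day 7. The stromal level was 847 and 589.8 CPM in uninjured 1 and 2, 115 and 169.9 CPM at day 3, 341 CPM at day 5 and 216 CPM at day 7. Endothelial-like nuclei were higher in 5 of 6 libraries, with uninjured 1 the exception. The log2 difference was 1.37 (SE 0.343, edgeR adjusted p = 0.00928), but it did not pass without day 3 2 (1.10, adjusted p = 0.0558) or without the library block (1.07, adjusted p = 0.0894). Immune-like nuclei had 7.24 to 73.2 CPM and were below stromal nuclei by a log2 difference of -4.11 (edgeR adjusted p = 3.93e-08, and -4.19 without uninjured 1) and below endothelial-like nuclei by -5.79 (edgeR adjusted p = 1.06e-10, and -5.97 without uninjured 1). IIFC-like nuclei had less Pdgfd than fibroblast-like nuclei in 5 of 5 libraries (-1.01, SE 0.195, edgeR adjusted p = 0.00237), a call lost without the library block (-0.90, adjusted p = 0.747). Pericyte/SMC-like nuclei ranged from 65.0 to 1284 CPM over 4 libraries, with 737 and 1284 CPM in the uninjured ones, which overlaps the endothelial-like range. Their difference from stromal nuclei did not pass (-0.34, SE 0.489, edgeR adjusted p = 0.790). Nor did that from endothelial-like nuclei (-1.16, edgeR adjusted p = 0.340), except without a filter on low counts.

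The highest mean of Pdgfd was in osteoblast-like nuclei, at 894 ± 823 CPM (SD, n = 4). These nuclei, named from Runx2 and other bone markers, had 2039.9 CPM in uninjured 2 (73 nuclei), 422 CPM in day 3 2 (27 nuclei), 923 CPM at day 5 (161 nuclei) and 190.3 CPM at day 7 (70 nuclei). The lowest and the highest of these differ by more than the whole range of the endothelial-like nuclei, and the ranges of both populations overlap. Without uninjured 2 the osteoblast-like mean would lie below the endothelial-like mean. The difference between osteoblast-like and fibroblast-like nuclei did not pass the test (0.96, edgeR adjusted p = 0.244), but it passed without a filter on low counts (0.89, adjusted p = 0.0425). At 500 UMIs a Pdgfd UMI was found in 28.2% of 341 osteoblast-like nuclei (23.4 to 33.2%), 24.4% of 882 endothelial-like nuclei (21.6 to 27.3%), 13.1% of 740 fibroblast-like nuclei (10.8 to 15.8%) and 1.11% of 1623 immune-like nuclei. Median depths were 1609 UMIs in osteoblast-like, 2216 in endothelial-like, 2990.5 in fibroblast-like and 2072 in immune-like nuclei, so that the deepest nuclei were not those with the highest shares. Within the endothelial-like population the Gja5 and Sema3g cluster had 1273 and 2353 CPM of Pdgfd in uninjured 1 and 2 and 2062 CPM at day 5. The Vwf and Selp cluster had 303, 785 and 652 CPM in the same libraries, the Mmrn1 and Reln cluster 261, 199 and 576 CPM and the Egfl7 and Rasip1 cluster 502, 536.5 and 557 CPM. The Adgrl4 and Kit cluster, whose values stand with the day 3 changes below, was close to the Gja5 cluster in uninjured 1 and lower in uninjured 2.

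Pdgfc, the latent ligand of PDGFRα, was carried by several stromal populations and by immune-like nuclei. SSPC-like nuclei had 261 and 375 CPM in uninjured 1 and 2, 806 CPM at day 5 and 141 CPM at day 7. Fibroblast-like nuclei had 48.0 and 47.6 CPM in uninjured 1 and 2, 79.6 and 78.2 CPM at day 3, 129 CPM at day 5 and 115 CPM at day 7. In each of the 4 libraries with both, SSPC-like nuclei were the higher (log2 difference 2.25, SE 0.385, edgeR adjusted p = 0.00213, where 7.28% of 5629 genes passed). IIFC-like nuclei had 16.2 CPM in uninjured 2 (34 nuclei, 1 UMI), 439.6 and 314 CPM at day 3, 685 CPM at day 5 and 316 CPM at day 7. They were above fibroblast-like nuclei in the 4 fractured libraries and below them in uninjured 2 (log2 difference 1.82, SE 0.262, edgeR adjusted p = 0.000151, where 7.69% of 9321 genes passed). Osteoblast-like nuclei, at 149 to 646 CPM, were also above fibroblast-like nuclei (1.65, edgeR adjusted p = 0.00305). Chondrocyte-like nuclei were low in Pdgfc, at 119 CPM at day 5 and 59.9 CPM at day 7, and at 500 UMIs 2.95% of 407 such nuclei (1.53 to 5.09%) had a UMI. Without the library block the 3 differences from fibroblast-like nuclei kept their size (2.21, 1.99 and 1.81) but did not pass (adjusted p = 0.127, 0.289 and 0.0678).

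Immune-like nuclei had 426 CPM of Pdgfc in uninjured 2, 253 and 247 CPM at day 3, 400.4 CPM at day 5, 341 CPM at day 7 and 73.2 CPM, from 1 UMI, in uninjured 1. This overlapped the stromal range of 86.9 to 442 CPM, and the difference did not pass the test (0.39, edgeR adjusted p = 0.327, and 0.38 with adjusted p = 0.262 without uninjured 1). Endothelial-like nuclei were lowest of these populations at 18.6 to 45.5 CPM, below stromal nuclei in 6 of 6 libraries (-2.87, SE 0.329, edgeR adjusted p = 4.05e-05). Immune-like nuclei exceeded them in 6 of 6 libraries (3.43, edgeR adjusted p = 2.97e-08, and 3.69 without uninjured 1), as did pericyte/SMC-like nuclei at 138 to 276 CPM (2.82, edgeR adjusted p = 0.000795). Most of the immune-like level came from the cluster led by Hpgds and Mrc1, a macrophage marker, which had 544 CPM in uninjured 2, 599 and 476 CPM at day 3, 768 CPM at day 5 and 920.2 CPM at day 7. The cluster led by S100a9 and S100a8, genes of neutrophils, had 25.3 CPM in its largest library (142 nuclei). At 500 UMIs a Pdgfc UMI was found in 15.1% of 1094 IIFC-like nuclei (13.0 to 17.3%), 13.1% of 145 SSPC-like nuclei, 12.9% of 341 osteoblast-like nuclei, 9.55% of 1623 immune-like nuclei (8.16 to 11.1%) and 1.13% of 882 endothelial-like nuclei, the background here. These shares pool libraries. In uninjured 2 a UMI was found in 0 of 34 IIFC-like and 10 of 62 SSPC-like nuclei. At day 5 the shares were 20.3 and 15%, and at day 7 they were 9.75 and 4%, in the same order.

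Pdgfra (ENSMUSG00000029231, chr5:75152292-75198215, plus strand), the α receptor, was measured in fibroblast-like nuclei at 366 and 592 CPM in uninjured 1 and 2, 305 and 401 CPM at day 3, 195 CPM at day 5 and 165 CPM at day 7. Endothelial-like nuclei had 0 to 15.9 CPM and pericyte/SMC-like nuclei 0 to 21.7 CPM in libraries with at least 20 nuclei. Both were below stromal nuclei, by -5.10 (SE 0.409, edgeR adjusted p = 3.28e-06) and -4.61 (SE 0.636, edgeR adjusted p = 0.00456). Immune-like nuclei were also below stromal nuclei (-3.57, edgeR adjusted p = 1.02e-07, and -3.69 without uninjured 1). IIFC-like nuclei had 779.5 CPM in uninjured 2, from 34 nuclei, and 150.3, 250.2, 75.0 and 102 CPM in day 3 1, day 3 2, day 5 and day 7. They were below fibroblast-like nuclei in the 4 fractured libraries (-0.79, SE 0.199, edgeR adjusted p = 0.0169), a call lost without day 3 1, day 3 2 or day 5 (adjusted p = 0.0816, 0.105 and 0.274), without the library block (adjusted p = 0.900) and with DESeq2 (adjusted p = 0.0664). Osteoblast-like nuclei were likewise below fibroblast-like nuclei (-1.72, edgeR adjusted p = 0.0105), a call lost without day 3 2 (adjusted p = 0.0972).

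Pdgfrb (ENSMUSG00000024620, chr18:61045150-61085061, plus strand), the β receptor of pericytes and smooth muscle, was measured in pericyte/SMC-like nuclei at 134 CPM in uninjured 1, 309 CPM in uninjured 2, 457 CPM at day 5 and 996 CPM at day 7. Stromal nuclei had 169, 122, 63.0 and 102 CPM in those libraries, and the order was turned in uninjured 1. The difference from stromal nuclei did not pass the test (1.88, SE 0.556, edgeR adjusted p = 0.0768). It passed without uninjured 1 (2.37, adjusted p = 0.00240) and with DESeq2 (1.86, adjusted p = 0.0202). Against endothelial-like nuclei, which had 4.14 to 33.1 CPM, it was 5.37 (SE 0.391, edgeR adjusted p = 2.99e-05), and stromal nuclei were above endothelial-like nuclei in 6 of 6 libraries (-3.66 for endothelial-like minus stromal, SE 0.302, edgeR adjusted p = 3.95e-06). Immune-like nuclei had 0 to 20.5 CPM in 5 libraries and 219.6 CPM, from 3 UMIs, in uninjured 1, and were below stromal nuclei (-3.12, edgeR adjusted p = 4.48e-06, and -3.38 without uninjured 1, but p = 0.0625 in the exact paired permutation test over 6 libraries). At 500 UMIs, 54 of 247 pericyte/SMC-like nuclei (21.9%, 16.9 to 27.5%) had a Pdgfrb UMI, against 5.49% of 2971 stromal nuclei and 0.454% of 882 endothelial-like nuclei, with median depths of 2703, 2651 and 2216 UMIs.

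The pericyte/SMC-like nuclei were not of 1 kind, and the kinds were spread unevenly over the days. When clusters were formed anew without integration of the libraries, a cluster of 131 nuclei was led by Myh11, Ryr2 and Dgkb. Of these, uninjured 1 and 2 gave 58 each. Another cluster of 114 nuclei was led by Rgs5, Trpc6 and Abcc9, of which day 5 gave 65 and day 7 gave 32. The nuclei are not exactly those of the main clustering, which had 62 pericyte/SMC-like nuclei in uninjured 1 against 58 and 6 here. The Myh11 cluster had 840.1 CPM of Pdgfd (counting interval 764 to 921) and 236 CPM of Pdgfrb, whereas the Rgs5 cluster had 172 CPM of Pdgfd and 651 CPM of Pdgfrb (573 to 737). That order of Pdgfd did not hold in every library. In the Myh11 cluster Pdgfd was 1241 and 778 CPM in uninjured 1 and 2 and 303 CPM in the 8 nuclei of day 5. In the Rgs5 cluster it was 1647 and 346 CPM in the 6 nuclei each of uninjured 1 and 2 and 130 CPM at day 5, so that the Rgs5 cluster was the higher in uninjured 1, on 11 UMIs. In day 3 2, with 4 and 5 nuclei, the Myh11 cluster had 26.4 CPM, from 1 UMI, and the Rgs5 cluster 206 CPM. Within the Rgs5 cluster alone, Pdgfrb stood at 749 and 819 CPM in the 6 nuclei each of uninjured 1 and 2, at 1158 CPM in the 5 nuclei of day 3 2, at 489 CPM at day 5 and at 1025 CPM at day 7. The values of Pdgfd and Pdgfrb by day in all pericyte/SMC-like nuclei therefore mix both kinds of nuclei, and kind and day cannot be told apart in most of them. Pericyte/SMC-like nuclei at day 5 also carried 1022 CPM of endothelial markers, of which Flt1 made 489 CPM, against 159 and 144 CPM in uninjured 1 and 2. The part of these in the results was not tested.

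**Figure D3:**
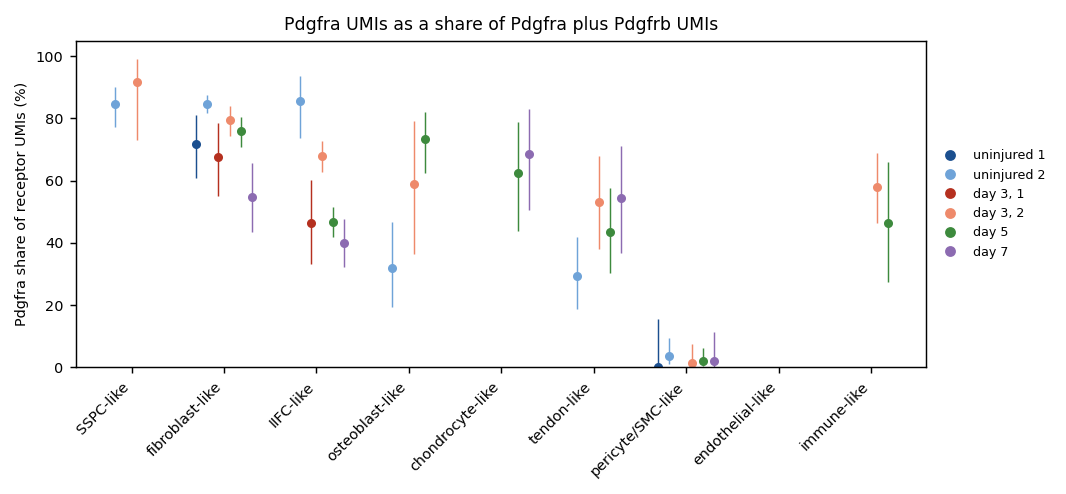
Pdgfra UMIs as a percentage of Pdgfra plus Pdgfrb UMIs (y axis) by population (x axis) and library (color), with Clopper-Pearson 95% intervals, for libraries with at least 20 receptor UMIs. Pericyte/SMC-like nuclei stay below 4%, and IIFC-like nuclei range from 39.9% at day 7 to 85.7% in uninjured 2 (34 nuclei).

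The balance of both receptors was compared between populations through the share of Pdgfra in the UMIs of both genes, since depth and gene length bear equally on every population. Over all libraries it was 81.3% in SSPC-like nuclei, 78.6% in fibroblast-like nuclei (76.4 to 80.7%) and 61.4% in chondrocyte-like nuclei. It was 56.3% in osteoblast-like nuclei, 54.8% in IIFC-like nuclei (51.8 to 57.8%), 43.7% in tendon-like nuclei and 2.30% in pericyte/SMC-like nuclei (1.06 to 4.32%). These shares pool libraries, and in uninjured 2 alone SSPC-like, fibroblast-like and IIFC-like nuclei were alike (84.6, 84.8 and 85.7%). In IIFC-like nuclei it was 85.7% in uninjured 2, 46.6 and 67.9% in day 3 1 and 2, and 46.8 and 39.9% at days 5 and 7. The value of uninjured 2 rests on 34 nuclei, of which 17 were of the shallow cluster, and it was 88.7% without that cluster. The study describes these cells as induced by injury, so that the uninjured nuclei carry the name by their cluster only. Osteoblast-like nuclei had 32.0% in uninjured 2, 59.1% in day 3 2 and 73.3% at day 5. Tendon-like nuclei had 29.2% in uninjured 2, 53.2% in day 3 2, 43.6% at day 5 and 54.3% at day 7. In fibroblast-like nuclei it was 71.8 and 84.8% in uninjured 1 and 2, 67.6 and 79.5% in day 3 1 and 2, and 76.0 and 54.8% at days 5 and 7, so that the uninjured and the day 3 libraries overlapped. At 1000 UMIs per nucleus, 308 of 2439 stromal nuclei had Pdgfra alone, 162 had Pdgfrb alone and 33 (1.35%) had both. At this depth Pdgfra was found in 14.0% and Pdgfrb in 8.0% of stromal nuclei. A nucleus with 1 receptor counted may thus carry both, and the counts cannot tell.

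To ask what changed early in repair, day 3 was compared with the uninjured periosteum, the only pair of times with more than 1 library each. In stromal nuclei Pdgfd fell, and it was the only member of the 5 tested that passed (Pdgfb was too low to test). Of all 9962 genes, 9.59% passed, and 5.40% passed with a lower level. Pdgfd went from 719 ± 182 CPM (SD, n = 2) to 142 ± 39.1 CPM (SD, n = 2), a log2 change of -2.36 (SE 0.373, edgeR adjusted p = 0.00396). Both day 3 libraries lay below both uninjured libraries. Uninjured 1 was counted with another Cell Ranger version (6.0.0) than the other libraries of this comparison (7.1.0). Without uninjured 1 the change was -2.11, in a fit where the 1 uninjured library left is assumed to vary like the day 3 libraries. Day 3 1 was counted on another gene list (32285 genes) than uninjured 1, uninjured 2 and day 3 2 (31055 genes each). Only genes listed for every library were compared, and the part of the gene list in the change was not tested.

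The make-up of the stroma differed between these days. Fibroblast-like nuclei were 78 of 128 and 162 of 381 stromal nuclei in uninjured 1 and 2 and 44 of 138 and 84 of 291 at day 3, while IIFC-like nuclei were 16 and 34 against 59 and 134. Osteoblast-like nuclei were 6 and 73 against 6 and 27, and SSPC-like nuclei 24 and 62 against 6 and 8. Pdgfd was 2039.9 CPM in the osteoblast-like nuclei of uninjured 2 and 522 and 562 CPM in SSPC-like nuclei of the uninjured libraries. The part of this make-up in the stromal change was not tested. Pdgfd was also read within fibroblast-like nuclei, where it was 906 and 366 CPM in uninjured 1 and 2 and 99.4 and 209 CPM at day 3, with no overlap. These nuclei join 2 clusters whose mix differed as well. The cluster led by Tenm2, Luzp2 and Ntng1 gave 32 of the 78 and 50 of the 162 nuclei of uninjured 1 and 2, but 2 of 44 and 5 of 84 at day 3. In the other cluster alone, led by Fgf7, Brinp1 and Bmper, Pdgfd was 589.7 and 318 CPM in uninjured 1 and 2 and 101 and 213 CPM at day 3, again with no overlap and with no test. In fibroblast-like and SSPC-like nuclei together it fell by 2.02 on the log2 scale (SE 0.473, edgeR adjusted p = 0.0310, where 6.89% of 6789 genes passed). That call was lost without day 3 1 (-1.77, adjusted p = 0.133) and, at about the same size, with relaxed limits on mitochondrial and ribosomal UMIs (-2.03, adjusted p = 0.0543). The Fgf7 cluster was 46 of the 102 and 112 of the 224 joined nuclei in uninjured 1 and 2 and 42 of 50 and 79 of 92 at day 3, and the part of this mix in the change was not tested. Within the IIFC-like nuclei of day 3 it was 16.7 and 86.9 CPM.

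Markers of other cells moved with the stromal result. The 8 endothelial markers summed to 369 and 201 CPM in stromal nuclei of uninjured 1 and 2, led by Tek, and to 27.5 and 54.4 CPM at day 3, where 2 and 1 of the 8 had no UMI. In endothelial-like nuclei the same markers summed to 6800.4, 7516, 4478 and 6116 CPM in these libraries. The 6 immune markers summed to 82.6 and 96.1 CPM in stromal nuclei of uninjured 1 and 2 and to 215 and 681 CPM at day 3, and the 6 macrophage markers to 4.35 and 9.49 CPM and to 98.6 and 344 CPM. The 6 muscle markers, led by Ttn, summed to 517 and 692 CPM and to 279.6 and 338 CPM. Their part in the result was not tested.

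**Figure D4:**
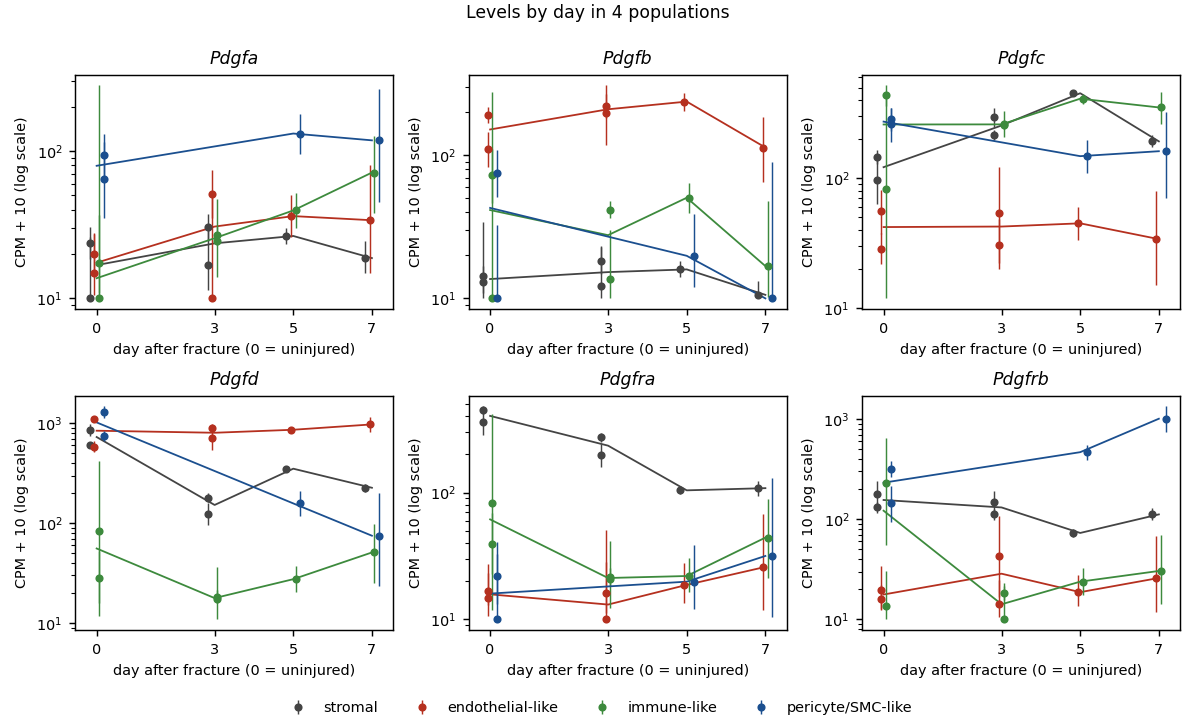
Level of each gene (CPM plus 10, y axis, log scale) by day after fracture (x axis, 0 for uninjured) in stromal, endothelial-like, immune-like and pericyte/SMC-like nuclei, with points for libraries of at least 20 nuclei, exact Poisson 95% intervals and lines through the means of each day. Stromal Pdgfd lies at 719 CPM on average before injury, 142 CPM at day 3, 341 CPM at day 5 and 216 CPM at day 7, while the endothelial-like line stays between 794 and 965 CPM.

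The other members did not pass in stromal nuclei. Pdgfc was 86.9 and 136 CPM in uninjured 1 and 2 and 284 and 206 CPM at day 3, with no overlap, but its log2 change of 1.10 (SE 0.390, edgeR adjusted p = 0.117) did not pass. In fibroblast-like and SSPC-like nuclei its change was -0.17 (edgeR adjusted p = 0.893), with 87.8 and 139.9 CPM against 109.9 and 100.7 CPM. In fibroblast-like nuclei alone Pdgfc was 48.0 and 47.6 CPM in uninjured 1 and 2 and 79.6 and 78.2 CPM at day 3. In their Fgf7 cluster alone it was 107 and 62.8 CPM against 81.2 and 79.7 CPM, and the groups overlapped. SSPC-like nuclei, where Pdgfc was high, were 24 and 62 in uninjured 1 and 2 and 6 and 8 at day 3, and the part of this in the joint value was not tested. Pdgfra was 348 and 435 CPM in stromal nuclei of uninjured 1 and 2 and 186 and 262 CPM at day 3, again with no overlap, and its change of -0.84 (SE 0.331, edgeR adjusted p = 0.159) did not pass either. It passed when clusters were formed without integration (-1.46, adjusted p = 0.0352). In fibroblast-like and SSPC-like nuclei its change was -0.35 (edgeR adjusted p = 0.708). The changes of Pdgfrb (-0.25, edgeR adjusted p = 0.792) and Pdgfa (0.52, edgeR adjusted p = 0.794) did not pass either.

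In endothelial-like nuclei, where 3.26% of 6752 genes passed, none of the 3 members tested did. The changes were 0.39 for Pdgfb (SE 0.344, edgeR adjusted p = 0.659), -0.29 for Pdgfc and -0.15 for Pdgfd (edgeR adjusted p = 0.897). The day 3 change of Pdgfd differed between endothelial-like and stromal nuclei by 2.17 (SE 0.439, edgeR adjusted p = 0.00867 for the interaction, where 3.38% of 8668 genes passed). That difference was lost without day 3 2 (2.08, adjusted p = 0.0871). The mix of endothelial-like clusters also differed between these days. The Adgrl4 and Kit cluster gave 29 of 208 and 40 of 256 nuclei in uninjured 1 and 2 and 20 of 38 and 27 of 64 at day 3, while the Gja5 and Sema3g cluster gave 38 and 59 against 4 and 6. Within the Adgrl4 and Kit cluster Pdgfd was 1201 and 1283 CPM in uninjured 1 and 2 and 818 and 583 CPM at day 3, lower at day 3 with no overlap. In the Vwf and Selp cluster it was 303 and 785 CPM against 655 CPM in day 3 2, inside the uninjured range. Markers of immune cells moved too. The 6 immune markers summed to 12.0 and 60.01 CPM in endothelial-like nuclei of uninjured 1 and 2 and to 99.3 and 435 CPM at day 3, where Fyb led, and the 6 macrophage markers to 2.39 and 119 CPM and to 99.3 and 261 CPM, where Mrc1 led. The part of the mix and of these markers in the endothelial-like changes and in the interaction was not tested. In immune-like nuclei Pdgfc was the only member tested, with a change of -0.21 (SE 0.697, edgeR adjusted p = 1.00), or -0.67 without uninjured 1. The direction turned without uninjured 2 (2.71), without day 3 2 (0.10) and without a filter on low counts (0.099), and none of these passed. There 0.508% of 5117 genes (26) passed with edgeR. Without uninjured 1 edgeR called 0 of 6042 genes, with 295 at an unadjusted p under 0.05. In the interaction of stromal with immune-like nuclei none of 5 members tested passed, with or without uninjured 1, against 2.17% of 7877 genes. Too few day 3 nuclei kept the pericyte/SMC-like population out of this test. In a fit added after the data were seen, with the 3 and 9 nuclei of day 3 included, none of the 3 members tested passed, at -2.50 for Pdgfd (edgeR adjusted p = 0.230), -2.33 for Pdgfc (adjusted p = 0.192) and 1.45 for Pdgfrb (adjusted p = 0.430), where 0.413% of 2665 genes did.

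**Figure D5:**
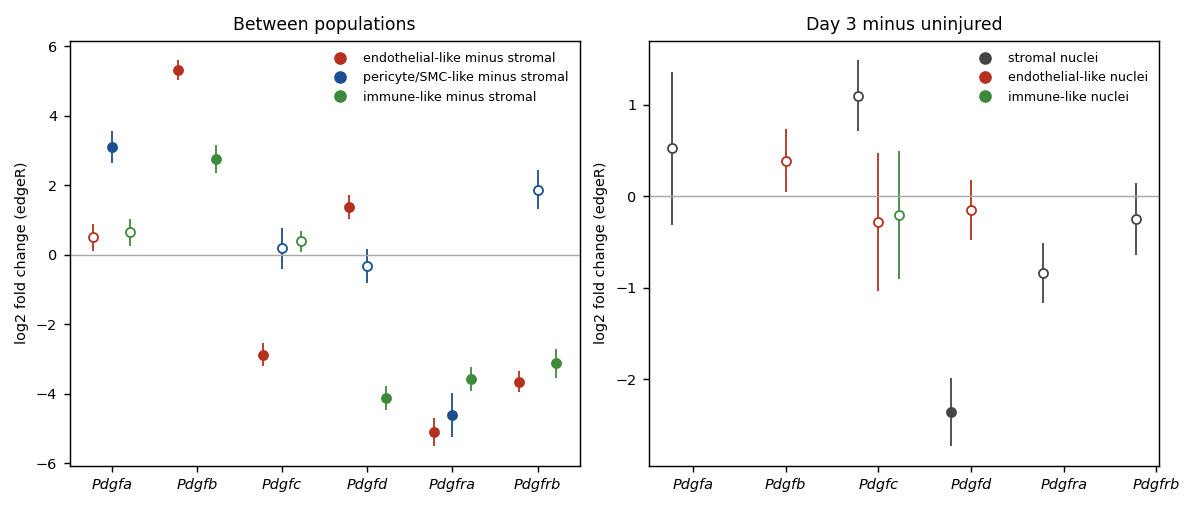
Log2 fold changes from edgeR (y axis) with their standard errors for each gene (x axis), between populations with the library as a block (left) and between day 3 and uninjured libraries (right). Filled points passed an adjusted p of 0.05, as stromal Pdgfd did at day 3 (-2.36), and open points did not.

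Days 5 and 7 have 1 library each and carry no test. In stromal nuclei Pdgfd was 341 CPM (counting interval 327 to 356) at day 5 and 216 CPM (195 to 239.5) at day 7, above both day 3 libraries and below both uninjured libraries. In fibroblast-like nuclei it was 432 CPM at day 5, inside the uninjured range, and 366 CPM at day 7, level with the 366 CPM of uninjured 2, the lower of the 2 uninjured libraries. The stroma held 153 and 242 chondrocyte-like nuclei at days 5 and 7, against 2 and 6 in day 3 1 and 2. Osteoblast-like nuclei were 161 and 70 against 6 and 27. Days 5 and 7 were counted with Cell Ranger 6.0.0 and both day 3 libraries with 7.1.0. The part of these in the stromal values was not tested. Pdgfc had its highest stromal level at day 5, with 442 CPM (426 to 459), and 182 CPM at day 7. IIFC-like nuclei (685 CPM), SSPC-like nuclei (806 CPM from 20 nuclei) and osteoblast-like nuclei (646 CPM) each had their highest value of Pdgfc, among libraries with at least 20 nuclei, at day 5. Pdgfra in stromal nuclei was 94.0 CPM at day 5 and 98.2 CPM at day 7, below the 4 earlier libraries, and chondrocyte-like nuclei, which came almost wholly from these days, had 21.5 and 42.2 CPM.

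The genes that process PDGFs or act below the receptors were read from a list of 63 genes chosen by function. In stromal nuclei at day 3, 6 of the 59 tested rose (4.19% of all genes did), 3 fell (5.40% of all genes) and 50 did not pass, with a median log2 change of 0.31 against 0.05 over all genes. The falls were near the share over all genes. Immune and macrophage markers in stromal nuclei and the mix of stromal populations also differed at day 3, as given above. Their part in these changes was not tested. Among proteases that process the ligands, 1 of 5 passed (9.59% of all genes did). This was Pcsk5, a proprotein convertase, with 543 and 374 CPM in uninjured 1 and 2 and 3051 and 1983 CPM at day 3 (2.49, SE 0.475, edgeR adjusted p = 0.00966). The rest of the list, Furin, Pcsk6, Plat, Plau and St14, gave no call, with 5 of the 6 listed tested. Whether Pcsk5 acts on a latent PDGF here was not tested. None of the 4 co-receptors passed. Among 25 adaptors and kinases 2 fell, where 5.40% of all genes did. They were Pik3r1, a regulatory subunit of PI3-kinase (-2.35, edgeR adjusted p = 0.00823), and Gab1, a docking protein (-2.14, edgeR adjusted p = 0.0182). Of 10 phosphatases, ligases and other brakes, Ptpn1 and Ptpn2, phosphatases named here after their values were seen, rose (1.61 and 1.81). Over all genes 4.19% rose.

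Among 15 transcribed targets of receptor signalling tested, 3 rose and 1 fell (4.19 and 5.40% of all genes). Fosl1, an AP-1 subunit, had 0 and 1.78 CPM before injury and 20.6 and 25.2 CPM at day 3 (3.82, edgeR adjusted p = 0.0233). Junb, another AP-1 subunit, had 13.0 and 20.8 CPM against 103 and 164 CPM (2.81, edgeR adjusted p = 0.00370). Has2, which makes hyaluronan, had 47.8 and 77.7 CPM against 202 and 386 CPM (2.11, edgeR adjusted p = 0.00806). Klf4, a transcription factor, went the other way, from 65.2 and 61.1 CPM to 2.29 and 17.5 CPM (-2.45, edgeR adjusted p = 0.0315). All 4 show day 3 and uninjured libraries apart, and each of these genes is also known to respond to other signals. In fibroblast-like and SSPC-like nuclei 6 of 45 rose and 3 fell (2.98 and 3.92% of all genes). The mix of clusters in these nuclei differed at day 3, as given above. Pcsk5, Junb, Has2, Ptpn1 and Ptpn2 were again higher and Klf4 and Gab1 again lower. They were joined by Fosl2 (1.80) and Pcsk6 (-2.54), which were named after their values were seen. In endothelial-like nuclei, whose immune markers were higher at day 3 as given above, 1 of 47 rose and none fell (1.51 and 1.75% of all genes). It was the ubiquitin ligase gene Cblb (1.57, edgeR adjusted p = 0.0479, named after its value was seen), and in immune-like nuclei 0 of 38 passed (edgeR), where 265 of all 5117 genes had an unadjusted p below 0.05.

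The genes whose levels were most like those of each member were read over 46 units of 1 population in 1 library, among 7352 genes. The units share libraries and depth, so that the Pearson correlations of log2(CPM + 10) are a description. For Pdgfra they were Dcn (0.863), Adgrd1 (0.846) and Dnm1 (0.828), and for Pdgfrb Arhgef25 (0.832), Adamts2 (0.831) and Cacna1c (0.804). For Pdgfb they were Arhgap27 (0.872), Xiap (0.849) and Prkch (0.822), and for Pdgfd Pard3b (0.813), Ttc28 (0.802) and Wwc2 (0.774). Pdgfc and Pdgfa had weaker neighbors, with Wls (0.665), Zfhx3 (0.611) and Basp1 (0.607) for Pdgfc and Cmtm4 (0.630), Gucy1a1 (0.600) and Rgs5 (0.600) for Pdgfa. Between members, Pdgfra and Pdgfrb correlated at 0.543, while Pdgfb correlated at -0.599 with Pdgfra and -0.565 with Pdgfrb.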

How the data were processed

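Nuclei of 6 samples were profiled with 10x 3′ single-nucleus RNA-seq. The authors deposited raw UMI counts per gene and barcode, made with Cell Ranger 6.0.0 (uninjured 1, day 5, day 7) or 7.1.0 (uninjured 2, both day 3 libraries). The study names the mouse build mm10, while the extraction notes of the labels name a human reference. The deposited files hold mouse gene identifiers. They list 31055 genes (uninjured 1, uninjured 2, day 3 2), 32285 genes (day 3 1, day 7) or 32287 genes (day 5).

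Limits of 200 to 5000 genes, 2% mitochondrial UMIs and 1.5% ribosomal UMIs kept 8067 of 13551 barcodes. Removing myogenic clusters (at least 3 of 6 markers found in 50% or more of the nuclei) left 6535 nuclei, and 6379 after 1 more such cluster. Scrublet's automatic threshold marked 0.645% of nuclei and was taken not to have worked. Doublets were therefore kept, and as an alternative the highest 6% of scores (483 nuclei) were removed. Libraries were integrated with Seurat 5.3.0 (2000 genes without the PDGF genes and the pathway list, 30 dimensions, 20 components, resolution 1.3) under R 4.3.3. Of 25 clusters, 2 stayed unnamed.

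UMI counts were summed per library and population (at least 20 nuclei) and tested with edgeR 4.0.16 (quasi-likelihood, TMM, filterByExpr, all genes, Benjamini-Hochberg, threshold 0.05), with the library as a block between populations. Uninjured and day 3 groups had 2 libraries each, and their replicate numbers follow accession order only. Levels are CPM with exact Poisson 95% intervals, the floor was 3 counts, and shares were taken after drawing 500 UMIs per nucleus. On simulated data the day 3 stromal test called 90 of 179 genes changed by a log2 of 2 and 2 unchanged genes (9879 genes tested), and the endothelial-like against stromal test called 178 of 187 and 4 unchanged genes (9664 tested).

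Alternatives were DESeq2 1.42.0, RLE size factors, no filter on low counts, resolution 0.8, no integration, relaxed limits (5% mitochondrial, no ribosomal limit), doublets removed, no library block, an exact paired permutation test, and each library left out. Added after seeing the data were removal of a shallow IIFC-like cluster, the fit with small pericyte/SMC-like libraries, the rule that left the Pax7 cluster unnamed and the 6% doublet rule. Named genes were the 6 PDGF genes, the 4 called pathway genes with the largest change each way in stromal nuclei, the 3 genes most like each PDGF gene (mean of at least 20 CPM) and the 3 leading genes of each cluster (in at least 25% of its nuclei). Members and lists were chosen with earlier results of these data known. The promoter table held 4 of the 6 genes. The windows of Pdgfa and Pdgfra are not shown, and those of Pdgfb and Pdgfrb were not used here. The values of 1 immune-like cluster are not reported here.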

Additional observations from a re-analysis of the deposited data

Results flagged for a closer look

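The day 3 change of Pdgfd differed between endothelial-like and stromal nuclei by 2.17 on the log2 scale (edgeR quasi-likelihood interaction test), from -2.36 in stromal to -0.15 in endothelial-like nuclei. It ranged from 1.57 to 2.86 when each library was left out, and the call was lost without day 3 2 (2.08, edgeR adjusted p = 0.0871). The mix of endothelial-like clusters differed between these days, and within the Adgrl4 and Kit cluster Pdgfd was 818 and 583 CPM at day 3 against 1201 and 1283 CPM in uninjured 1 and 2. The part of this mix in the interaction was not tested.

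Pdgfc was high at day 5 in an unnamed cluster of 91 nuclei led by Pax7, Chodl and Fgfr4, genes of muscle satellite cells, which no comparison used. It reached 834 CPM there (130 UMIs in 44 nuclei, counting interval 697 to 991), against 41.5 and 30.6 CPM in uninjured 1 and 2, 64.4 and 144 CPM in day 3 1 and 2 and 120.1 CPM at day 7. Those libraries gave 9, 19, 12, 2 and 5 nuclei in the same order, with 1 or 2 UMIs each, below the minimum of 20 nuclei. Day 5 has 1 library, and the difference was not tested.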

How the results depend on the processing

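No paired analysis was possible because the replicate numbers follow accession order only, as far as day 3 and uninjured libraries are compared, whereas populations were paired within libraries by the block. The fall of Pdgfd in stromal nuclei at day 3 kept its direction and its side of the threshold under every alternative run (-1.92 without integration to -2.64 without uninjured 2). Resolution 0.8 changed the call of no PDGF gene. Exact paired permutation cannot go below p = 0.125 with 4 libraries, 0.0625 with 5 or 0.03125 with 6, and no p of this test passed when adjusted over all comparisons (lowest 0.15). Of the 16 PDGF calls it lost, 13 had 4 or 5 libraries. By this exact test the 3 with 6 libraries were Pdgfd in endothelial-like (p = 0.0625) and Pdgfb (p = 0.09375) and Pdgfrb (p = 0.0625) in immune-like, each minus stromal nuclei. Pdgfra in immune-like minus endothelial-like nuclei passed the exact test unadjusted (1.03, p = 0.03125), where the edgeR adjusted p was 0.0611. The cause of the changes below was not tested.

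Genes called moved, without integration, from 955 to 563 in stromal nuclei at day 3 and from 293 to 452 in the interaction with endothelial-like nuclei. Without a filter they moved to 855 (fibroblast-like and SSPC-like, from 468), 680 (endothelial-like, from 220), 1503 (pericyte/SMC-like minus stromal, from 701), 1334 (osteoblast-like minus fibroblast-like, from 826) and 641 (SSPC-like minus fibroblast-like, from 410). DESeq2 gave 10 in immune-like nuclei (26 with edgeR), 129 in the endothelial-like interaction and 17 in the immune-like interaction (171 with edgeR). With doublets removed edgeR called 0 in immune-like nuclei, and relaxed limits gave 508 in the endothelial-like interaction. Without the library block the population counts were 1732 (of 3143), 318 (701), 2695 (4659), 795 (1488), 1754 (3034), 5 (717), 322 (826) and 26 (410), in the order endothelial-like, pericyte/SMC-like and immune-like minus stromal, pericyte/SMC-like and immune-like minus endothelial-like, and IIFC-like, osteoblast-like and SSPC-like minus fibroblast-like.

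With a library left out, genes called ranged from 611 to 1203 (stromal), 280 to 605 (fibroblast-like and SSPC-like), 42 to 382 (endothelial-like), 0 to 11 (immune-like), 94 to 400 (endothelial-like interaction), 2 to 418 (immune-like interaction), 3034 to 5271 (immune-like minus stromal), 237 to 822 (pericyte/SMC-like minus stromal), 783 to 1488 (pericyte/SMC-like minus endothelial-like), 207 to 906 (IIFC-like), 360 to 1224 (osteoblast-like) and 129 to 437 (SSPC-like, each minus fibroblast-like).

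Among the PDGF genes, beside the calls lost or gained that stand with the results above, these values lay on the other side of 0 or of the threshold. With all nuclei in place of stromal nuclei, Pdgfa was -0.28 at day 3. Without integration, Pdgfra was -1.46 in stromal and Pdgfc 0.58 in endothelial-like nuclei. Relaxed limits gave -2.03 for Pdgfd in fibroblast-like and SSPC-like nuclei, 0.30 for Pdgfc in endothelial-like nuclei, and 0.054 for Pdgfa and -0.47 for Pdgfrb in immune-like minus endothelial-like nuclei. With doublets removed, Pdgfrb was 0.074 in fibroblast-like and SSPC-like nuclei, Pdgfc -0.063 in pericyte/SMC-like minus stromal and Pdgfa 0.042 in immune-like minus endothelial-like nuclei, while Pdgfra and Pdgfrb were -0.10 and -0.51 in the endothelial-like and both 1.06 in the immune-like interaction. Without a filter, Pdgfc was 0.10 in immune-like nuclei at day 3 and -0.020 in pericyte/SMC-like minus stromal nuclei, and 3 differences passed that had not, at 1.66 (Pdgfrb, pericyte/SMC-like minus stromal), -1.20 (Pdgfd, pericyte/SMC-like minus endothelial-like) and 0.89 (Pdgfd, osteoblast-like minus fibroblast-like). Without the library block, Pdgfd was 0.34 in pericyte/SMC-like minus stromal nuclei. For Pdgfa in immune-like minus endothelial-like nuclei, DESeq2 gave 0.074 and the exact permutation test 0.13. RLE size factors gave 0.0053 for Pdgfd in SSPC-like minus fibroblast-like nuclei.

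With a library left out, where the lone library of its group is assumed to vary like the others, the day 3 changes ranged from -0.63 to 0.12 (Pdgfrb, stromal), -0.49 to 0.22 (Pdgfc), -2.54 to -1.52 (Pdgfd) and -0.41 to 0.35 (Pdgfrb, all 3 in fibroblast-like and SSPC-like), -0.93 to 0.56 (Pdgfc) and -0.56 to 0.31 (Pdgfd, both endothelial-like) and -0.67 to 2.71 (Pdgfc, immune-like). The endothelial-like interaction ranged from -1.10 to 0.29 (Pdgfb), -2.34 to -0.25 (Pdgfc, past the threshold without uninjured 2), 1.57 to 2.86 (Pdgfd), -4.13 to 0.56 (Pdgfra) and -0.43 to 1.85 (Pdgfrb). The immune-like interaction ranged from -3.20 to 7.45 (Pdgfb), -1.35 to 1.27 (Pdgfc) and -6.39 to 1.42 (Pdgfrb). Differences from stromal nuclei in pericyte/SMC-like nuclei ranged from -0.42 to 0.88 (Pdgfc) and -0.80 to 0.026 (Pdgfd), and Pdgfd in SSPC-like minus fibroblast-like nuclei from -0.27 to 0.26.

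Drawing 1000 UMIs, and drawing none, gave shares of 13 and 23.5% (Pdgfa, pericyte/SMC-like), 15.5 and 30.6% (Pdgfb, endothelial-like), 50 and 53.4% (Pdgfd, osteoblast-like), 24.3 and 48.8% (Pdgfra, fibroblast-like) and 35 and 56.7% (Pdgfrb, pericyte/SMC-like). Without a draw the share of Pdgfc was 43.8% in SSPC-like nuclei.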
